A study of Homo sapiens with 16 samples.

Results

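This comparison set HMC3 cells exposed to ketamine against HMC3 cells exposed to (2R,6R)-HNK, both in the absence of estradiol (E2). Its members are the 2 RNA-seq libraries labelled ketamine and the 2 labelled (2R,6R)-HNK, 4 of the 16 libraries of the series, chosen by their labels and not by any measured value. HMC3 is an established human cell line, named microglial by its supplier and the study, though most microglial markers were near or at 0 in these libraries. Both compounds were given at 400 nM for 24 h, in medium without serum or phenol red, after a period in charcoal-stripped serum and then without serum. Vehicle-treated cells (2 libraries) serve here to place each level, and the same 2 compounds given together with 0.1 nM E2 (2 libraries each) serve as a second pair that shares no library with the first. All groups are cultures of the same line, and the labels do not say whether the 2 libraries of a group came from separate cultures, so p-values measure the spread between libraries, which may be technical.

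Ketamine is an anaesthetic and a rapidly acting antidepressant that blocks the NMDA type of glutamate receptor. Liver enzymes remove its N-methyl group to give norketamine and then add a hydroxyl group to the cyclohexanone ring, which gives the hydroxynorketamines. (2R,6R)-HNK is thus the parent drug without the methyl group on nitrogen and with a hydroxyl group on the ring, and its name fixes the configuration at both ring carbons. It is studied because it has antidepressant-like effects in rodents while binding the NMDA receptor channel only weakly. The question was where a parent drug and its metabolite, at the same dose and time, leave different transcriptomes in the same cells.

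The 16 libraries held between 55300614 and 81646165 counts. The ketamine libraries held 81646165 and 79389018 and the (2R,6R)-HNK libraries 78275204 and 58121307. Differences between replicates exceeded sampling noise, with a variance 2.69 times that of sampling for ketamine and 2.70 times for (2R,6R)-HNK. Among counts from 1 to 9, 65.8% were even, against 49.9% of counts of 500 or more, so low counts are not independent single events, and the excess over sampling noise does not show whether replicates were prepared separately. Of 20 microglia and macrophage markers, 16 stayed under 1 CPM (counts scaled to the size of the library) in all 4 libraries and 6 had no count. CX3CR1, P2RY13, TYROBP and the C1q chains C1QA, C1QB and C1QC had 0 counts, and the myeloid factor SPI1 had at most 2 counts in a library. CD68 was between 17.6 and 22.0 CPM. Of 14 markers of fibroblasts and mural cells, 4 stayed under 1 CPM in all 4 libraries, with at most 17 counts for FAP and at most 6 for COL3A1, DCN and LUM. ACTA2, PDGFRA, RGS5 and S100A4 were also low, between 1.09 and 2.62 CPM. Others were abundant, as COL1A1 was between 4280 and 5082 CPM, TAGLN between 1194 and 1773 CPM and PDGFRB between 265 and 293 CPM. Of 7 epithelial markers 4 stayed under 1 CPM in all 4 libraries, while KRT18 was between 517 and 625 CPM. The summed level of the 14 fibroblast and mural cell markers, of which COL1A1 and TAGLN had the highest levels, was 6462 to 6574 CPM with ketamine and 7958 to 7997 CPM with (2R,6R)-HNK. Of the 11 tested none was higher with ketamine and 5 were lower, against 22.8% and 22.6% of all genes tested. The summed level of the 20 microglia and macrophage markers was 95.9 to 97.5 CPM with ketamine and 78.2 to 82.2 CPM with (2R,6R)-HNK, and of the 5 tested 2 were higher and 0 lower. The part of these shifts in the results was not tested.

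All differences are given as log2 fold change of ketamine minus (2R,6R)-HNK ± standard error, so that a positive value is a higher level with ketamine, and levels are CPM after normalization, which allow comparison of a gene between libraries but not of different genes. A gene was called at an adjusted p under 0.05. Of 16004 genes tested, 7265 were called (45.4% of those tested), 3652 higher with ketamine (22.8%) and 3613 lower (22.6%). Calls were more frequent among the 10346 genes with a mean of at least 5 CPM, of which 6613 (63.9%) were called. The shares over all genes that are set beside gene lists below include genes under that level. The differences were small. The median absolute log2 fold change of the called genes was 0.27, which is 1.21-fold. Adding the limit of a 2-fold difference that the study used left 135 genes (0.844% of those tested), 97 higher and 38 lower with ketamine. Of these, 108 had a mean level under 1 CPM, 18 a mean from 1 to 5 CPM and 9 a mean of 5 CPM or more. In 4 of them all libraries of 1 group had no counts, so that no fold change is given. Under other settings of the processing, given below, the number of genes past both limits lay between 54 and 152.

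The intervals bound the size of the difference for most genes, called or not. For 11064 genes (69.1%) the 95% interval of the difference lay within 1.5-fold in either direction, and for 13233 (82.7%) within 2-fold. Among the 10346 genes whose mean level reached 5 CPM, the interval lay within 1.5-fold for 94.9% and within 2-fold for 99.8%. Intervals wholly beyond 1.5-fold were found for 88 genes and wholly beyond 2-fold for 24.

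**Figure D1:**
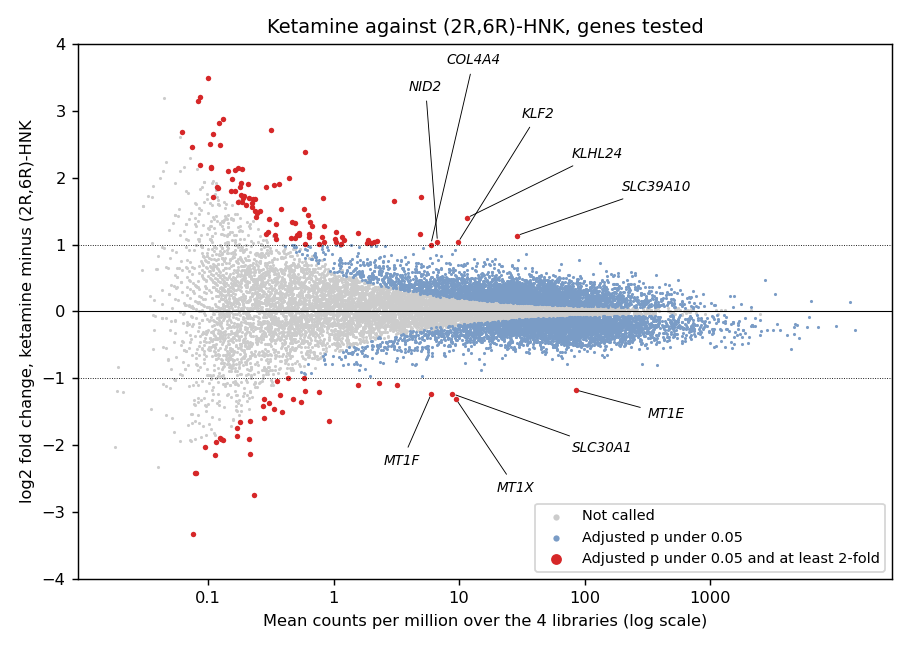
The difference between ketamine and (2R,6R)-HNK (vertical axis, log2 fold change) against the mean level over the 4 libraries (horizontal axis, CPM on a log scale), 1 point for each gene tested except those with no counts in a whole group. Of the 135 genes past both limits (red), 108 lie under 1 CPM, and the 9 named genes are those at 5 CPM or above.

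Vehicle placed the differences. Of the 3652 genes higher with ketamine, 2440 were at their highest in vehicle, with (2R,6R)-HNK furthest below it, while 540 were lowest in vehicle and 672 had vehicle between the compounds. Of the 3613 genes lower with ketamine, 2248 were at their lowest in vehicle, 455 were highest in vehicle and 910 had vehicle in between. In most called genes, then, the mean level with ketamine lay nearer to vehicle than that with (2R,6R)-HNK, on the same side. Distances between whole libraries, taken over log2 CPM of the tested genes, ran the same way. The 2 ketamine libraries lay 39.1 apart and the 2 (2R,6R)-HNK libraries 45.4, a ketamine library lay 52.3 to 56.0 from a (2R,6R)-HNK library, 70.7 to 71.4 from vehicle, and a (2R,6R)-HNK library 77.0 to 80.2 from vehicle. Libraries given E2 alone lay 51.8 to 52.5 from ketamine and 47.2 to 53.1 from (2R,6R)-HNK, as near as the compounds lay to each other, and replicates of the 8 groups lay up to 50.9 apart. Over all genes tested, 59.3% were called for ketamine against vehicle and 66.6% for (2R,6R)-HNK against vehicle.

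Base composition moved with the comparison. Across genes, which are not independent, the difference between the compounds had a Spearman correlation of -0.39 with the GC content of the exons (15358 genes with a value), and the difference from vehicle had one of 0.64 for ketamine and 0.75 for (2R,6R)-HNK. Genes higher with ketamine had a median exon GC of 43.3% and those lower with ketamine 56.2%. When a trend with GC content and exon length was removed from each library, 6224 genes were called (38.9%), 2360 higher (14.7% of those tested) and 3864 lower (24.1%) with ketamine, against 3652 and 3613 before. Of the 7265 genes, 66.2% were called in the same direction after it. The correction removes any response of the cells that follows GC content together with any effect of library preparation, and which of these it was cannot be told apart here. Where it ends a call, turns a direction, or moves a count of members or the difference of a called gene by more than 1.5 times, that is given in the same paragraph, and the corrected medians of the gene lists follow the plot of the lists.

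All 4 genes lower with ketamine among the 9 that passed both limits at 5 CPM or more, MT1E, MT1X, MT1F and SLC30A1, handle zinc, as does SLC39A10, which was higher. Metallothioneins are small cysteine-rich proteins that bind zinc and copper, SLC30A1 (ZnT1) exports zinc across the plasma membrane, and SLC39A10 (ZIP10) imports it. The zinc-sensing transcription factor MTF1 is known to drive metallothionein genes and SLC30A1 through metal response elements in their promoters when free zinc rises, and SLC39A10 is known to be repressed under the same condition. Of 8 metallothionein genes tested 5 were lower with ketamine, against 22.6% of all genes tested. Among the 5 is MT1L, which is annotated as a transcribed pseudogene. The other 4, MT1E, MT1F, MT1X and MT2A, kept the call after the GC and length correction.

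MT1E (chr16:56659387-56661024, plus strand, GRCh37) was at 50.6 and 53.6 CPM in the ketamine libraries and at 115 and 120 CPM in the (2R,6R)-HNK libraries. Its mean in vehicle was 75.3 CPM, between the compounds, and neither pair of libraries came near the other. The difference was -1.17 ± 0.04 (adjusted p = 1.86e-28). MT2A, the most studied metallothionein, was at 273 and 278 CPM with ketamine and at 479 and 482 CPM with (2R,6R)-HNK. With ketamine it lay slightly under its vehicle mean of 299.8 CPM and with (2R,6R)-HNK well above it, a difference of -0.80 ± 0.03 (adjusted p = 3.07e-28). MT1X (chr16:56716382-56718108, plus strand) was at 5.75 and 5.08 CPM against 12.9 and 14.1 CPM, a difference of -1.31 ± 0.10 (adjusted p = 3.96e-16). MT1F (chr16:56691643-56694610, plus strand) was at 3.96 and 3.18 CPM against 7.83 and 9.04 CPM, a difference of -1.23 ± 0.11 (adjusted p = 3.85e-13). For these 4 genes both compounds moved away from vehicle in opposite directions. Against vehicle, MT1E changed by -0.53 with ketamine and 0.64 with (2R,6R)-HNK, MT1X by -0.40 and 0.92, MT1F by -0.47 and 0.77, and MT2A by -0.12 and 0.68, each past the test. The metallothionein genes lie side by side on chromosome 16 and are close in sequence, so reads of members could be split differently by another counting.

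SLC30A1 (chr1:211744910-211752503, minus strand, GRCh37) was at 5.45 and 5.10 CPM with ketamine, against 11.6 and 13.3 CPM with (2R,6R)-HNK. The difference was -1.23 ± 0.10 (adjusted p = 2.84e-15). Vehicle was at 13.3 CPM, so here the (2R,6R)-HNK libraries stood beside vehicle (-0.10, not past the test) and the ketamine libraries stood below it (-1.34). SLC39A10 (chr2:196440701-196602426, plus strand) was at 37.9 and 41.0 CPM with ketamine and at 18.2 and 17.8 CPM with (2R,6R)-HNK. The difference was 1.13 ± 0.06 (adjusted p = 1.78e-22), and 0.95, under the 2-fold limit, after the GC and length correction. For this importer the compounds changed places, since ketamine was near the vehicle mean of 35.9 CPM (0.14) and (2R,6R)-HNK below it (-0.996).

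**Figure D2:**
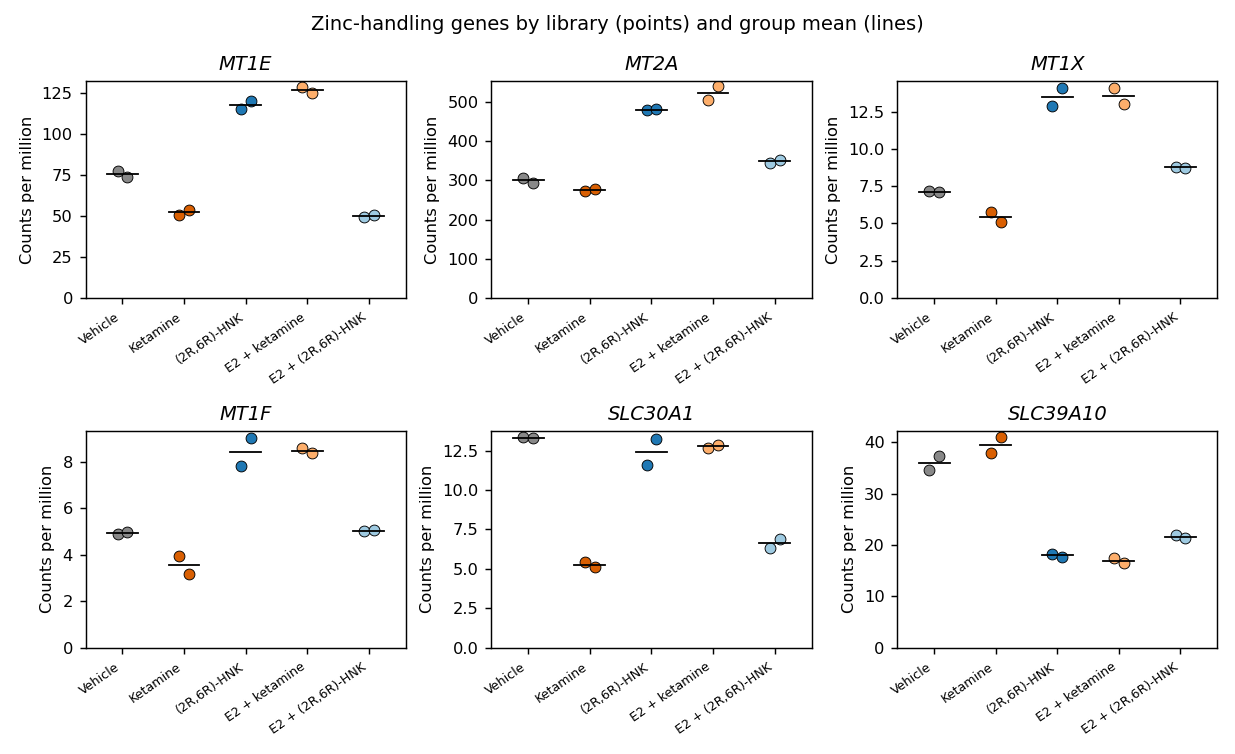
Levels of 6 zinc-handling genes (vertical axes, CPM, starting at 0) in the 2 libraries of each of 5 groups, with the group mean as a line. Without E2 the ketamine points lie below the (2R,6R)-HNK points for MT1E, MT2A, MT1X, MT1F and SLC30A1 and above them for SLC39A10, and with E2 the order of each is the other way round.

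Of the 13 genes in the list of metallothioneins and MTF1, 9 were tested. MTF1 was called higher with ketamine and 5 metallothionein genes were called lower, and the median of the 9 was -0.83 against 0.02 over all genes tested. The fifth, the pseudogene MT1L, was at 21.9 and 23.2 CPM against 25.8 and 26.3 CPM (-0.21, adjusted p = 0.00275). MTF1 itself was at 26.5 and 25.6 CPM against 22.9 and 21.2 CPM, a difference of 0.24 (adjusted p = 0.00064). After the GC and length correction neither MT1L (-0.02) nor MTF1 (0.11) passed the test, while the other 4 did. MT1A, MT1G and MT3 stayed under 0.6 CPM in all 4 libraries and did not pass the test. Of 24 zinc transporters, 20 were tested, 3 were higher and 5 lower with ketamine, against 22.8% and 22.6% of all genes tested, and the median was 0.08. Besides SLC30A1 and SLC39A10 the smallest adjusted p-values belonged to the importers SLC39A3, at 50.6 and 50.7 CPM against 68.0 and 67.03 CPM (-0.41), and SLC39A1, at 159 and 163 CPM against 188 and 193 CPM (-0.24). The correction gave -0.12 for SLC39A1.

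Promoter sequences show the elements through which metallothionein genes are known to respond to zinc. The sequences are the 250 bases before the start of each gene in RefSeq on GRCh38.p14, written 5′ to 3′ on the gene's strand, and capitals mark the core of the metal response element, TGCACNC or TGCGCNC on either strand. Such a core was found at least once in 24.8% of 35116 promoter windows of this length and at least 4 times in 0.370%. MT1X (chr16:56682220-56682469, plus strand) held 4, MT2A (chr16:56608334-56608583, plus strand) held 7, and SLC30A1 (chr1:211579162-211579411, minus strand) held 1. MT1E, MT1F and MT1L had no entry in the table.
MT1X: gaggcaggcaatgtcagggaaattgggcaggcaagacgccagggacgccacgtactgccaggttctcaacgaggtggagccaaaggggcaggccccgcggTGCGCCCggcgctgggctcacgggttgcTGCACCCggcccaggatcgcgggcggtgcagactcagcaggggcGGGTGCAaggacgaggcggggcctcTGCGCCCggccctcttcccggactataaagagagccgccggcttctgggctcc
MT2A: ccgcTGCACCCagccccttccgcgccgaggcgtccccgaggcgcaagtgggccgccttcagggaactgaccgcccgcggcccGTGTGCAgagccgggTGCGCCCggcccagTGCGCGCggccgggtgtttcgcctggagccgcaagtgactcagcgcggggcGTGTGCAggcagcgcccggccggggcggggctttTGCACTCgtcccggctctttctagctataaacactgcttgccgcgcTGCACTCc
SLC30A1: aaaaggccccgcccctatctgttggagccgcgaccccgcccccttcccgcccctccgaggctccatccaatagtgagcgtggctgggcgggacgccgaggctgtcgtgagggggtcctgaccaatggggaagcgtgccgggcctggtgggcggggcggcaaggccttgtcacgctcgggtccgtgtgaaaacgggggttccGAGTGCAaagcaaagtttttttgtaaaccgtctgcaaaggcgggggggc
The 2 windows of SLC39A10 and the window of MTF1 held no such core. A match is a description of the letters and was not measured as a bound site.

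The other 4 genes that reached a mean of 5 CPM and a difference past 2-fold, KLHL24, KLF2, NID2 and COL4A4, were higher with ketamine. KLHL24 (chr3:183353398-183402307, plus strand), a substrate adaptor of a ubiquitin ligase that acts on keratin 14, was at 16.9 and 16.5 CPM with ketamine and at 6.17 and 6.54 CPM with (2R,6R)-HNK. The difference of 1.40 ± 0.09 (adjusted p = 1.59e-17) was the greatest among these 9 genes in either direction. Its vehicle mean of 11.1 CPM lay between, with ketamine above it (0.59) and (2R,6R)-HNK below it (-0.81). KLF2 (chr19:16435637-16439496, plus strand), a zinc finger transcription factor known for restraining inflammatory genes in endothelium and myeloid cells, was at 13.8 and 12.6 CPM against 7.07 and 5.74 CPM (1.03 ± 0.10, adjusted p = 1.58e-12). Ketamine left it at the vehicle mean of 12.8 CPM, and (2R,6R)-HNK was lower (-0.99). NID2 and COL4A4 encode basement membrane proteins, a nidogen and a type IV collagen chain. COL4A4 (chr2:227867430-228029169, minus strand) was at 7.46 and 8.37 CPM against 3.71 and 4.25 CPM (1.0002 ± 0.11, adjusted p = 7.01e-11), just past the fold limit. COL4A4 fell under that limit after the GC and length correction (0.89) and by DESeq2 (0.99). NID2 (chr14:52471527-52535777, minus strand) was at 9.20 and 8.87 CPM against 4.22 and 4.599 CPM (1.04 ± 0.10, adjusted p = 3.67e-12). Its exons share 1909 bases with C14orf166 on the other strand, and since the strand setting of the counting is not given, reads of the 2 genes cannot be told apart. The called gene of this level nearest to the fold limit from below had an absolute log2 fold change of 0.97.

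JAK-STAT and type I interferon genes, some of which the study followed by PCR, showed small differences in both directions. In this pathway interferon binding activates the kinases JAK1 and TYK2, which phosphorylate STAT proteins, and these with IRF9 turn on interferon-stimulated genes such as MX1, OAS1 and ISG15, while SOCS proteins limit the signal. JAK1 was at 102 and 106 CPM with ketamine against 83.97 and 85.0 CPM (0.30 ± 0.03, adjusted p = 1.06e-10). STAT2 was at 113.8 and 117.9 CPM against 98.95 and 100.7 CPM (0.22 ± 0.04, adjusted p = 1.35e-06). JAK1 was below its vehicle mean of 129.8 CPM with both compounds, whereas STAT2 was above its vehicle mean of 66.5 CPM with both. JAK2 was at 6.39 and 5.30 CPM against 4.30 and 4.74 CPM (0.38, adjusted p = 0.00506). That call is lost after the GC and length correction (0.18) and without the ketamine replicate 1 (0.24) or the (2R,6R)-HNK replicate 1 (0.30). STAT3, a central signal transducer in the study, was at 155.5 and 159.3 CPM against 151.7 and 148.5 CPM. Its difference of 0.07 ± 0.03 (adjusted p = 0.0461) had a 95% interval of 0.01 to 0.13. It is lost on leaving out any 1 of the 4 libraries and by DESeq2, and it is -0.04 after the GC and length correction. After the GC and length correction the difference was 0.18 for JAK1.

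Among the targets, MX1, an antiviral GTPase, was lower with ketamine, at 2.84 and 3.76 CPM against 5.91 and 5.49 CPM (-0.79 ± 0.15, adjusted p = 1.67e-05). Vehicle was at 1.63 CPM, so that MX1 rose with both compounds, by 1.02 with ketamine and by 1.81 with (2R,6R)-HNK. ISG15, a ubiquitin-like protein, was also lower, at 42.1 and 42.9 CPM against 52.0 and 54.96 CPM (-0.33 ± 0.05, adjusted p = 3.25e-08), with vehicle at 28.0 CPM. The transcription factors IRF3 (-0.34, adjusted p = 1.71e-09) and IRF7 (-0.23, adjusted p = 9.05e-05) were lower with ketamine, and IRF7 lost its call after the GC and length correction (-0.02). The kinase EIF2AK2, also called PKR, was higher, at 40.1 and 37.2 CPM against 30.7 and 30.7 CPM (0.33, adjusted p = 4.35e-07), and lost its call after the correction (0.12). STAT2, ISG15, IRF3 and EIF2AK2 are not among the 13 genes listed as measured by PCR in the study. Differences in the remaining genes of those 13 did not pass the test, or only just. For the complement protease C1R, 10.6 and 11.7 CPM stood against 9.86 and 9.32 CPM (0.21, adjusted p = 0.0346). Its call is lost by DESeq2, with counts thinned to the smallest library (0.18), and without the ketamine replicate 2 (0.14) or either (2R,6R)-HNK library (0.25 without replicate 1 and 0.17 without replicate 2). SOCS3 was at 61.4 and 59.8 CPM against 64.6 and 63.4 CPM (-0.08, 95% interval -0.16 to 0.00, and 0.08 after the GC and length correction), and IRF9 at 26.5 and 26.2 CPM against 27.8 and 26.7 CPM (-0.05, 95% interval -0.16 to 0.07). For JAK3 the interval ran from -0.09 to 0.44, for SOCS1 from -0.39 to 0.60 and for OAS1 from -0.73 to 0.24. It ran from -0.88 to 0.27 for MX2 and from -2.01 to 0.13 for OAS2, at under 0.5 CPM. Differences within these intervals are not excluded. The correction left a difference of -0.15 for ISG15 and -0.22 for IRF3.

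**Figure D3:**
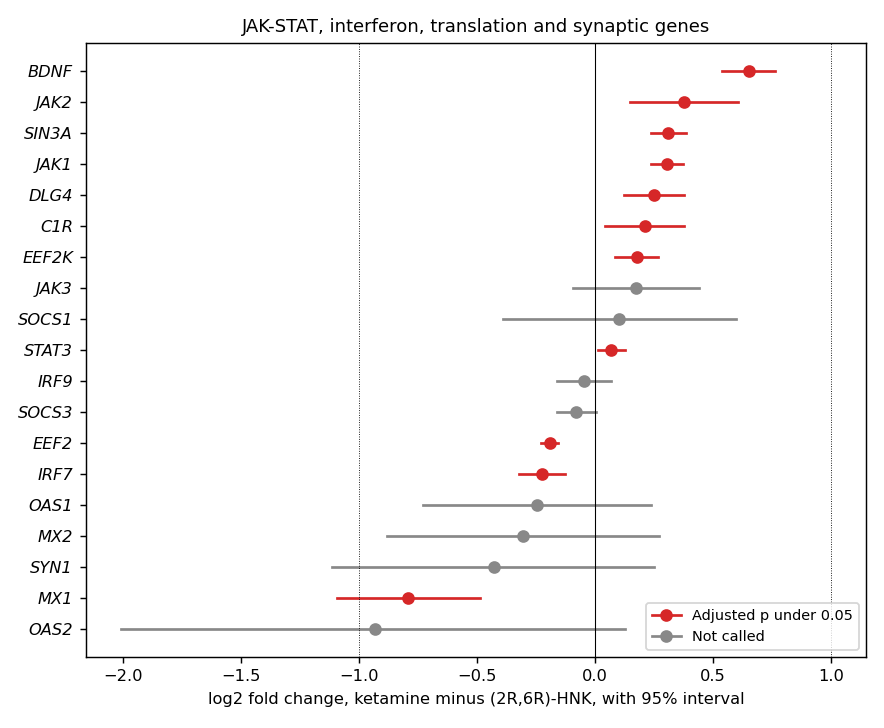
The difference between ketamine and (2R,6R)-HNK (horizontal axis, log2 fold change, point) with its 95% interval (line) for 19 genes named or measured by PCR in the study, red where the adjusted p was under 0.05. BDNF has the highest value (0.65) and, among called genes, MX1 the lowest (-0.79), and dotted lines mark 2-fold.

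Of 45 tested interferon-stimulated genes, 11 were higher and 12 lower with ketamine, with a median of 0.03, and 5 and 9 after the GC and length correction. Over all genes tested 22.8% were higher and 22.6% lower, and 14.7% and 24.1% after that correction. Of 16 receptors and signalling genes of the type I interferon pathway, 6 were higher and 4 lower (median -0.05), and of 27 JAK, STAT and SOCS genes 9 were higher and 3 lower (median 0.07). After the same correction these counts were 3 higher and 4 lower, and 5 higher and 2 lower. The genes followed by PCR were chosen on these same samples and are no independent evidence. Among these 13 genes 4 were higher and 2 lower, and 2 and 1 after the correction. Their median against vehicle, whose libraries both comparisons share, was 0.70 for ketamine and 0.85 for (2R,6R)-HNK.

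Genes of glutamate signalling and synapses are known as the site of action of ketamine in neurons. Of 31 listed, 20 were tested, with a median of 0.05. Of the 20, 5 were higher and 2 lower with ketamine, against 22.8% and 22.6% of all genes tested. Of the NMDA receptor subunits, GRIN1 was at 0.68 and 0.51 CPM against 0.60 and 0.52 CPM (95% interval -0.67 to 0.81). GRIN2D was at 5.804 and 6.69 CPM against 6.52 and 5.32 CPM (95% interval -0.15 to 0.29). The groups overlap for each. BDNF, the neurotrophin that antidepressants are known to raise in brain, was at 34.5 and 32.5 CPM with ketamine and at 21.0 and 21.8 CPM with (2R,6R)-HNK. The difference was 0.65 ± 0.06 (adjusted p = 6.18e-14). Relative to the vehicle mean of 29.7 CPM, ketamine was higher (0.17) and (2R,6R)-HNK lower (-0.48). BDNF shares 988 exon bases with its antisense gene BDNF-AS, whose reads cannot be told apart from its own. The scaffold proteins of the postsynaptic density DLG1, at 66.8 and 64.7 CPM against 50.7 and 50.6 CPM (0.38), and DLG4 (PSD-95), at 26.6 and 26.8 CPM against 22.2 and 22.6 CPM (0.25, adjusted p = 0.000833), were higher with ketamine. Synapsin 1 (SYN1) was under 1 CPM in all 4 libraries and its interval ran from -1.11 to 0.25. The difference was 0.15 for DLG1 after the GC and length correction.

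Elongation factor 2 (EEF2) and its inhibitory kinase EEF2K, a proposed path from NMDA receptor block to BDNF translation, differed in opposite directions. EEF2 was at 4408 and 4454 CPM with ketamine and at 5052 and 5080 CPM with (2R,6R)-HNK (-0.19 ± 0.02, adjusted p = 3.09e-13), and EEF2K at 43.3 and 43.4 CPM against 38.0 and 38.8 CPM (0.18 ± 0.05, adjusted p = 0.0011). Both transcripts were above vehicle with both compounds. Among 22 genes of the mTOR pathway and EEF2 translation control, 8 were higher and 8 lower (median 0.06). All genes tested had 22.8% higher and 22.6% lower. The translation initiation factor EIF4B was higher with ketamine, at 641.9 and 647.8 CPM against 464.5 and 463.0 CPM (0.48). The mTORC1 inhibitor AKT1S1 (PRAS40), at 76.4 and 74.5 CPM against 107.7 and 107.7 CPM (-0.51), and the S6 kinase RPS6KB2, at 79.2 and 80.8 CPM against 113 and 112 CPM (-0.50), were lower. For AKT1S1 and RPS6KB2 ketamine lay near vehicle (78.7 and 74.0 CPM) and (2R,6R)-HNK above it. With the GC and length correction the difference was -0.07 for EEF2.

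The SIN3A corepressor, which recruits histone deacetylases, is part of the study's account of STAT3. SIN3A was at 90.9 and 92.9 CPM with ketamine and at 74.2 and 74.0 CPM with (2R,6R)-HNK (0.31 ± 0.04, adjusted p = 6.84e-10), both under the vehicle mean of 102.2 CPM. Of 20 complex members 9 were higher with ketamine and 4 lower (median 0.12), against 22.8% and 22.6% of all genes tested. BRMS1, a metastasis suppressor within the complex, was lower, at 112 and 116 CPM against 171 and 170 CPM (-0.58). MXI1, a MAX-binding repressor that recruits SIN3A, was higher, at 27.2 and 26.2 CPM against 16.7 and 16.6 CPM (0.68), as was SUDS3, at 48.8 and 48.8 CPM against 34.8 and 36.2 CPM (0.46). The GC and length correction gave 0.12 for SIN3A.

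The enzymes that turn ketamine into its metabolites were hardly measurable. Of 12 listed, 4 were tested. None was higher with ketamine and 2 were lower, against 22.8% and 22.6% of all genes tested. The cytochrome P450 reductase POR was at 79.7 and 76.1 CPM with ketamine against 100.7 and 99.6 CPM (-0.36, adjusted p = 1.35e-11), and cytochrome b5 (CYB5A) at 16.4 and 16.4 CPM against 18.5 and 18.8 CPM (-0.19, adjusted p = 0.0152), a call that is lost on leaving out any 1 library. The difference was -0.39 for CYB5A after the GC and length correction.

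Respiratory chain subunits and ribosomal proteins had the largest shares of members lower with ketamine among the 32 lists. The shares over all genes set beside them include weakly expressed genes, and 63.9% of genes with a mean of at least 5 CPM were called in either direction. Of 76 nuclear-encoded subunits of the respiratory chain, 49 were lower and 10 higher (median -0.23), against 22.6% and 22.8% over all genes tested. After the GC and length correction 60 were lower and 3 higher (median -0.19), against 24.1% and 14.7% over all genes. ATP5B, the catalytic subunit of ATP synthase, was at 914.1 and 922.7 CPM against 1157 and 1157 CPM (-0.33 ± 0.02, adjusted p = 6.38e-20), CYC1, of complex III, at 192 and 186 CPM against 269 and 258 CPM (-0.48), and ATP5G3 at 162 and 166 CPM against 214 and 227 CPM (-0.43). With ketamine ATP5B was below vehicle (-0.15) and ATP5G3 did not differ from it past the test (-0.04), and with (2R,6R)-HNK both were above it (0.18 and 0.39). Against vehicle, 41 of the 76 subunits were lower and 16 higher with ketamine, whereas 25 were lower and 38 higher with (2R,6R)-HNK. Over all genes tested, 32.5% were lower and 26.8% higher than vehicle with ketamine, and 34.9% were lower and 31.7% higher with (2R,6R)-HNK. Of 78 cytosolic ribosomal protein genes 51 were lower with ketamine and 14 higher (median -0.13). RPS2 was at 3617 and 3551 CPM against 4547 and 4593 CPM (-0.35) and RPS26 at 316.1 and 316.3 CPM against 430.5 and 435.1 CPM (-0.45). Ribosomal protein genes have many processed copies in the genome, with which reads can be shared. Against vehicle, 33 were higher and 32 lower with ketamine, and 47 were higher and 24 lower with (2R,6R)-HNK. Differences after the GC and length correction were -0.29 for CYC1 and -0.20 for RPS2.

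Of 36 genes of glycolysis and hypoxia, 14 were higher and 14 lower with ketamine (median -0.01), against 22.8% and 22.6% of all genes tested. Lactate dehydrogenase A (LDHA) was higher, at 3603 and 3577 CPM against 2980 and 2999 CPM (0.26), as was the hypoxia and stress gene NDRG1, at 233.9 and 233.7 CPM against 173.8 and 172.0 CPM (0.44), while triosephosphate isomerase (TPI1) was lower, at 2564 and 2566 CPM against 3101 and 3095 CPM (-0.27). Of 37 genes of cholesterol and fatty acid synthesis 12 were higher and 17 lower (median -0.02). After the GC and length correction 7 were higher, against 14.7% of all genes tested. The fatty acid desaturase FADS2 (-0.27) and fatty acid synthase (FASN, -0.32) were lower with ketamine, and stearoyl-CoA desaturase (SCD) was higher (0.23). Corrected for GC and length, the differences were 0.14 for SCD, 0.12 for LDHA and -0.14 for TPI1.

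Among stress pathways the chaperones and the antioxidant genes had more members lower with ketamine than higher, where all genes tested had 22.6% lower and 22.8% higher. Of 42 heat shock proteins and cochaperones 19 were lower with ketamine and 10 higher (median -0.09), and 23 and 5 after the GC and length correction, which gave 24.1% lower and 14.7% higher over all genes tested. The collagen chaperone SERPINH1 (HSP47) was at 396 and 394.8 CPM against 574 and 567 CPM (-0.53 ± 0.02, adjusted p = 1.8e-24), the HSP90 cochaperone FKBP4 at 190 and 191 CPM against 265 and 265 CPM (-0.47), and the small heat shock protein HSPB1 at 540.3 and 543.3 CPM against 715 and 712 CPM (-0.40). SERPINH1 with ketamine was level with vehicle (394.7 CPM), and with (2R,6R)-HNK above it (0.53). Of 29 genes of the NRF2 antioxidant response 12 were lower and 5 higher (median -0.05). Ferritin light chain (FTL, -0.39) and the quinone reductase NQO1, at 76.4 and 77.7 CPM against 108 and 112 CPM (-0.51), were lower, and thioredoxin reductase 1 (TXNRD1), at 313.6 and 315.4 CPM against 230.7 and 227.6 CPM, was higher (0.46). Of 37 targets of ATF4, the transcription factor of the integrated stress response, 18 were higher and 13 lower (median 0.06). The amino acid transporter SLC38A2 was higher with ketamine (0.48), and both chains of the leucine transporter, SLC7A5 (-0.27) and SLC3A2 (-0.28), were lower. Corrected differences were -0.21 for HSPB1, 0.30 for SLC38A2 and -0.14 for SLC7A5.

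Of 47 genes of the cell cycle and DNA replication 19 were higher and 19 lower (median 0.03). Among all genes tested 22.8% were higher and 22.6% lower. The mitotic kinase PLK1 was at 201 and 199 CPM against 273 and 271 CPM (-0.44), and the G1 kinase CDK6 at 177.3 and 176.5 CPM against 122 and 123 CPM (0.53). Of 28 p53 targets and regulators 13 were higher and 6 lower (median 0.05). The ubiquitin ligase MDM2 was higher, at 86.1 and 84.7 CPM against 62.6 and 65.1 CPM (0.42). Of 33 clustered histone genes none was higher with ketamine and 3 were lower (median -0.18). Corrected values were 0.31 for CDK6 and 0.22 for MDM2.

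Of 37 collagens and matrix genes 22 were higher and 7 lower (median 0.13, and 0.14 after the GC and length correction), where all genes tested had 22.8% higher and 22.6% lower. The collagen cross-linking enzyme LOX was at 261.5 and 263.2 CPM against 196 and 198 CPM (0.41), thrombospondin 2 (THBS2) at 294.5 and 302.6 CPM against 229.4 and 231.6 CPM (0.37), and the fibrillar collagen COL11A1 at 110.2 and 108.0 CPM against 76.4 and 78.8 CPM (0.49). The chains of type I collagen, named here after their values were seen, were lower, COL1A1 at 4280 and 4366 CPM against 5054 and 5082 CPM (-0.23, adjusted p = 2.91e-11) and COL1A2 at 213 and 205 CPM against 245 and 244 CPM (-0.23, adjusted p = 8.27e-09), as was the summed level of the fibroblast and mural cell markers given above, of which both are members. Thrombospondin 1 (THBS1) was also lower, at 1240.1 and 1253.8 CPM against 1710.1 and 1711.2 CPM (-0.46 ± 0.02, adjusted p = 8.5e-25), and lay below its vehicle mean of 1889 CPM with both compounds. Of 16 matrix metalloproteinases and their inhibitors 3 were higher and 3 lower, or 5 and 0 after the correction. The correction gave 14.7% higher and 24.1% lower over all genes tested. The gelatinase MMP2 was at 7.73 and 7.16 CPM with ketamine and at 4.61 and 3.90 CPM with (2R,6R)-HNK (0.80 ± 0.13, adjusted p = 5.4e-07), both above the vehicle mean of 2.17 CPM. Genes that answer to TGF-beta and YAP split into 10 higher and 13 lower of 28 (median 0.07), and those with the smallest adjusted p-values were lower. The actin-binding protein transgelin (TAGLN) was at 1194 and 1222 CPM against 1762 and 1773 CPM (-0.55 ± 0.02, adjusted p = 9.83e-28), and the myosin light chain MYL9 at 1665 and 1695 CPM against 2347 and 2329 CPM (-0.48). TAGLN shares 2233 exon bases with PCSK7 on the other strand. Of 14 hyaluronan genes 4 were higher and 4 lower, or 1 and 3 after the correction. Of 30 PDGF and other growth factors and receptors 11 were higher and 7 lower (median 0.10), among them IGF1R, at 97.1 and 93.5 CPM against 64.9 and 68.6 CPM (0.52), and its ligand's carrier IGFBP3, at 47.9 and 44.7 CPM against 65.005 and 66.4 CPM (-0.50). The corrected difference was 0.25 for LOX and -0.39 for COL1A2.

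Of 22 cytokines and chemokines 3 were higher and 3 lower (median -0.02), with 1 lower after the correction. All genes tested had 22.8% higher and 22.6% lower, and 24.1% lower after the correction. The IL-6 family cytokine LIF was at 60.7 and 62.5 CPM with ketamine against 84.2 and 86.1 CPM (-0.47), with vehicle at 50.9 CPM, and TGFB2 at 244.5 and 244.1 CPM against 199 and 201 CPM (0.29), with vehicle at 317.9 CPM. Of 16 complement genes 6 were higher and 3 lower (median 0.25), and the inhibitor of the membrane attack complex CD59 was at 303.8 and 301.8 CPM against 233.1 and 231.1 CPM (0.38). C1QBP, a mitochondrial protein that also binds C1q, was lower (-0.39). Of 22 genes of MHC class I antigen presentation 5 were higher and 5 lower (median -0.03), with 2 lower after the correction. The chaperone CANX was at 738.6 and 737.3 CPM against 635 and 643 CPM (0.21), a difference that came to 0.01 and lost its call after the GC and length correction, and the peptide-trimming enzyme ERAP2 was at 18.0 and 17.7 CPM against 12.2 and 12.01 CPM (0.56). The correction left 0.13 for TGFB2 and 0.22 for CD59.

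Transcription factors of the immediate early and C/EBP families numbered 6 higher and 8 lower of 31 (median -0.02), or 10 higher after the correction. Among all genes tested 22.8% were higher and 22.6% lower, and 14.7% were higher after the correction. The AP-1 member FOSL1 was at 107 and 109 CPM against 151.5 and 150.9 CPM (-0.48) and KLF6 at 88.3 and 85.4 CPM against 63.9 and 61.0 CPM (0.47). Of 20 clock genes 7 were higher and 2 lower (median 0.11), or 4 higher after the correction, led by ARNTL2, a partner of CLOCK (0.49). Of 18 prostanoid genes 5 were higher and 1, the synthase PTGES2, lower, at 96.9 and 92.3 CPM against 147 and 142 CPM (-0.61). Of 23 long noncoding RNAs 9 were higher and 4 lower (median 0.11). LINC00657 (NORAD) was at 495 and 500.4 CPM against 372 and 377 CPM (0.41), and DANCR at 40.5 and 42.3 CPM against 69.6 and 65.4 CPM (-0.71 ± 0.05, adjusted p = 3.18e-18). With the correction the differences were 0.31 for ARNTL2 and 0.26 for LINC00657.

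**Figure D4:**
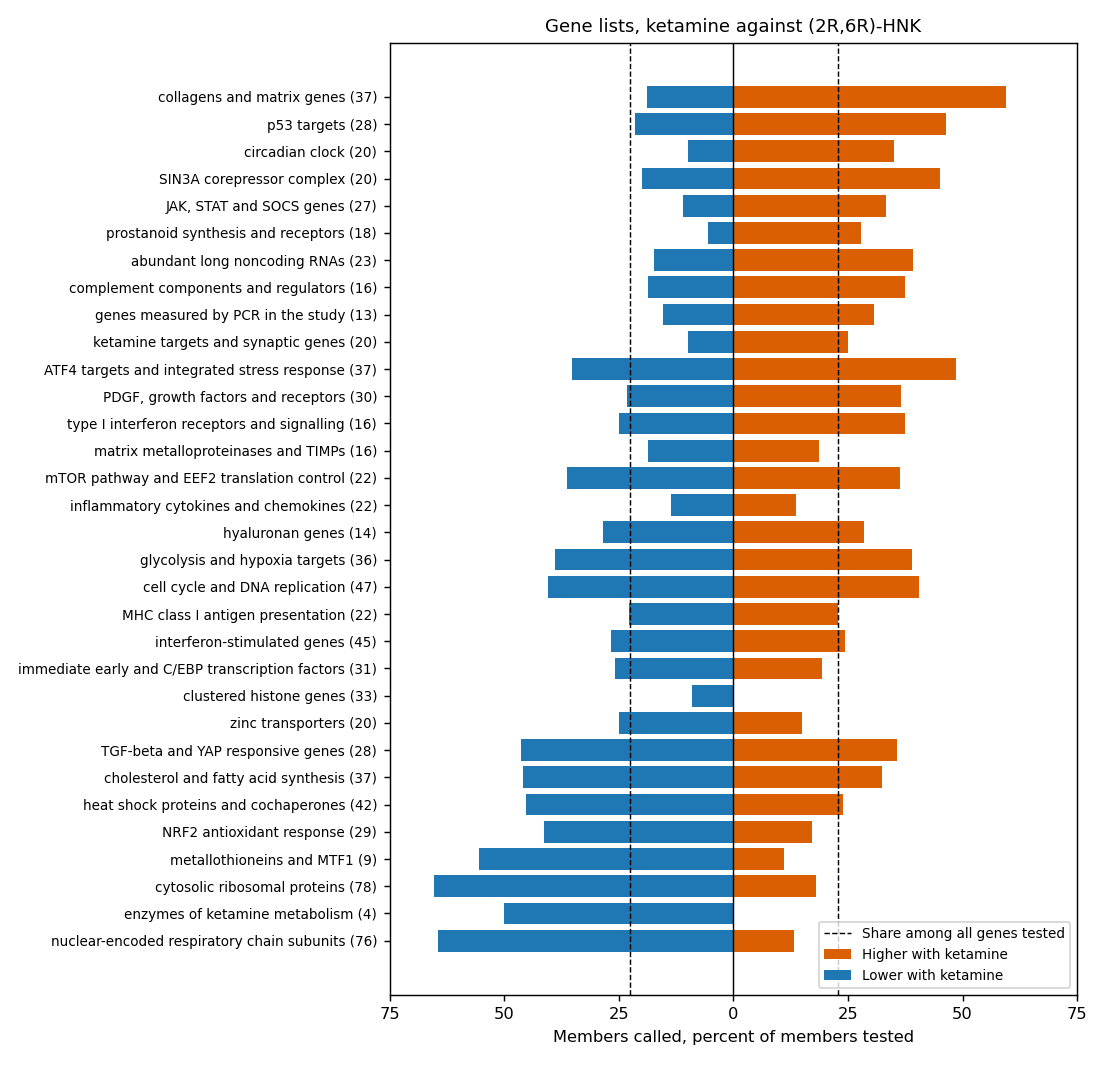
Members called higher (right, orange) and lower (left, blue) with ketamine, as percent of the members tested (number in brackets), for 32 gene lists, with the shares among all genes tested, 22.8% and 22.6%, as dashed lines. The respiratory chain (49 of 76 lower) and ribosomal proteins (51 of 78 lower) extend furthest to the left, and collagens and matrix genes (22 of 37 higher) furthest to the right. In either direction, 63.9% of genes with a mean of at least 5 CPM were called, against 45.4% of all genes tested.

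The GC and length correction moved the median over all genes tested from 0.02 to -0.03. For glycolysis and hypoxia genes the median shrank from -0.015 to -0.005, by more than 1.5 times. The sign of the median turned from 0.07 to -0.04 for JAK, STAT and SOCS genes, from 0.06 to -0.03 for the mTOR list, from 0.08 to -0.06 for zinc transporters, from 0.03 to -0.01 for interferon-stimulated genes, from 0.03 to -0.04 for the cell cycle list, from -0.02 to 0.09 for cytokines, from -0.03 to 0.04 for MHC class I genes, from -0.03 to 0.09 for matrix metalloproteinases and from -0.02 to 0.03 for immediate early factors. The median shrank by more than 1.5 times from 0.12 to 0.06 for the SIN3A complex, from 0.11 to 0.02 for long noncoding RNAs, from 0.11 to 0.05 for clock genes, from -0.18 to -0.07 for histone genes, from -0.05 to -0.03 for type I interferon signalling, from -0.05 to -0.02 for the genes followed by PCR and from 0.07 to 0.03 for TGF-beta and YAP genes, and it grew by more than 1.5 times from 0.05 to 0.14 for synaptic genes, from -0.05 to -0.10 for NRF2 targets and from -0.02 to -0.06 for lipid synthesis.

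The same pair of compounds in the presence of 0.1 nM E2 gave a different order. Between E2+ketamine and E2+(2R,6R)-HNK 8325 genes were called (52.0%), 4044 higher with ketamine and 4281 lower. Of the 7265 genes called without E2, 5882 (81.0%) had the opposite sign with E2, against 68.0% of all genes tested. Among genes called in both pairs, 4614 had opposite signs and 608 the same. The change of the difference, tested as an interaction, was called for 9034 genes (56.4%), of which 6334 belong to the 7265. Across genes the differences without and with E2 had a Spearman correlation of -0.39, and that with exon GC turned from -0.39 to 0.27. MT1E was at 128 and 125 CPM with E2+ketamine and at 49.4 and 50.8 CPM with E2+(2R,6R)-HNK (1.34 ± 0.04, adjusted p = 1.19e-31), which is close to its levels without E2 with the compounds exchanged. SLC30A1 was at 12.7 and 12.9 CPM against 6.34 and 6.90 CPM (0.95), MT2A at 505 and 540.2 CPM against 344 and 353 CPM (0.58), and SLC39A10 at 17.4 and 16.5 CPM against 21.9 and 21.3 CPM (-0.35). Of the 76 respiratory chain subunits 55 were higher with ketamine and 7 lower, of the 78 ribosomal proteins 52 were higher and 8 lower, and of the 37 matrix genes 7 were higher and 20 lower, against 25.3% higher and 26.7% lower over all genes tested. Some genes kept their direction. KLF2 was higher with ketamine in both pairs, at 13.6 and 15.5 CPM against 4.44 and 4.11 CPM with E2 (1.77 ± 0.11, adjusted p = 7.4e-20), as were BDNF (0.33) and MMP2 (0.59). NID2 did not differ past the test with E2 (0.07).

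**Figure D5:**
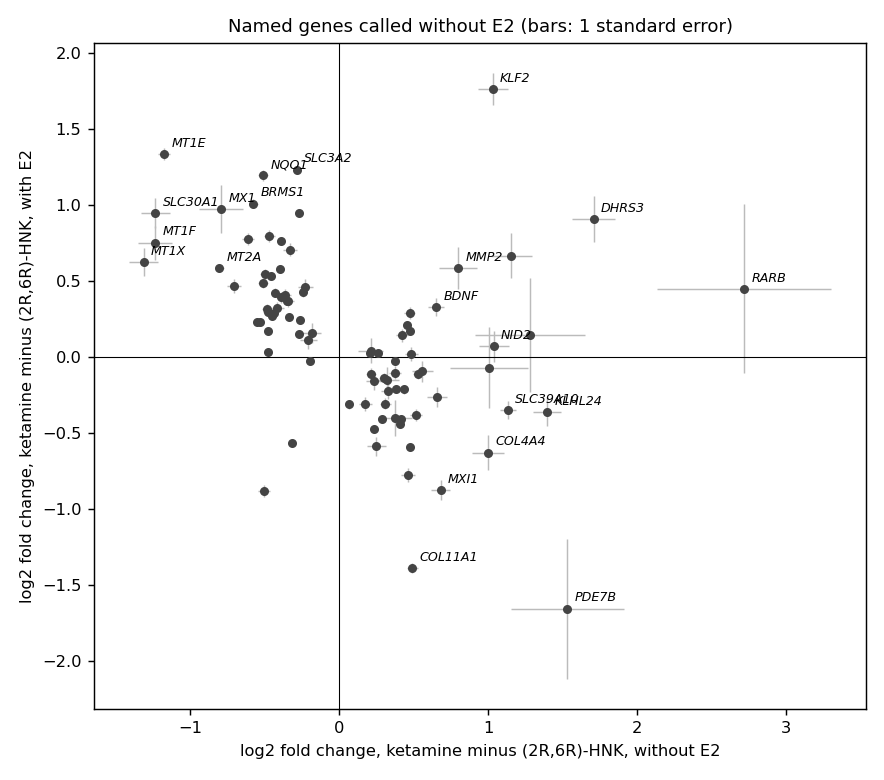
The difference between ketamine and (2R,6R)-HNK without E2 (horizontal axis) and with E2 (vertical axis), both as log2 fold change with bars of 1 standard error, for the named genes called without E2. Most points lie in the upper left or lower right, where the signs are opposite, such as MT1E (-1.17 and 1.34), and KLF2 (1.03 and 1.77) lies in the upper right.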

How the data were processed

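HMC3 libraries were made from amplified cDNA and sequenced as paired 100 bp reads. The authors aligned reads to UCSC hg19 and counted uniquely mapped, non-discordant pairs per gene with featureCounts, and the values they deposited are raw counts without normalization. The submitters' processing notes list TopHat2 2.0.14, Bowtie2 2.2.6 and featureCounts 1.4.6. The strand setting is not given in the sources used here.

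Genes were kept with filterByExpr (16004 of 25370) and normalized by TMM. One edgeR 4.0.16 quasi-likelihood fit in R 4.3.3 to all 16 libraries, with 8 group means, gave every contrast. Benjamini-Hochberg adjustment ran over all genes tested. Exact permutation tests of 2 against 2 cannot give a two-sided p under 0.333, so single-gene p-values rest on the model. The libraries of each group follow from the labels, while the comparison itself and the gene lists were chosen with earlier results of these data known. Genes were named if past both limits with at least 5 CPM and no overlap (at most 12 each way), if among the up to 4 smallest adjusted p-values of a list, or if the study named them. Some genes that this rule names are not reported here. Gene positions, GC content and lengths came from GENCODE on GRCh37 (21539 genes of the table matched by symbol and 1498 by older symbol, with GC for 96.0% of those tested). Alternatives were DESeq2 1.42.0, edgeR on the 4 libraries, other filters and normalizations, a replicate block, a GC and length correction (loess, span 0.5), halved or thinned counts, and each library left out. Scripts were tested on simulated data.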

Additional observations from a re-analysis of the deposited data

Results flagged for a closer look

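The difference between ketamine and (2R,6R)-HNK was not the same with and without E2 for 9034 of the genes tested (56.4%, adjusted p under 0.05 for the interaction). Of the 103 named genes tested, 93 were among them. Most of the named genes were chosen by their difference without E2, which is part of the interaction, so a high share was built in. The values below are the difference without E2 minus the difference with E2, on the log2 scale, so that a negative value means that ketamine stood lower relative to (2R,6R)-HNK without E2 than with it. The 2 differences come from separate libraries. Whether E2, the culture or the preparation of those libraries set them apart cannot be told from these data.

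Among zinc genes the value was negative for MT1E (-2.51), SLC30A1 (-2.18), MT1F (-1.99), MT1X (-1.94), MT2A (-1.39), SLC39A3 (-0.73), SLC39A1 (-0.67) and MT1L (-0.32) and positive for SLC39A10 (1.48) and MTF1 (0.39). The other genes past 2-fold gave KLHL24 (1.76), COL4A4 (1.63), NID2 (0.97) and KLF2 (-0.73). For KLF2 the sign is the same in both pairs and the gap was wider with E2.

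Among interferon and JAK-STAT genes the values were negative for OAS2 (-2.41), OAS1 (-1.93), MX1 (-1.77), MX2 (-1.14), ISG15 (-1.04), SOCS1 (-1.03), IRF3 (-0.72), IRF7 (-0.69) and SOCS3 (-0.51) and positive for JAK3 (0.84), JAK2 (0.78), EIF2AK2 (0.56), JAK1 (0.44), STAT3 (0.38) and STAT2 (0.32). Other immune genes gave LIF (-1.26), TGFB2 (0.70), CD59 (0.59), C1QBP (-0.78), CANX (0.18) and ERAP2 (0.65). For the synaptic and translation genes they were BDNF (0.32), DLG4 (0.84), DLG1 (0.48), EIF4B (1.07), AKT1S1 (-1.001), RPS6KB2 (-1.04), EEF2 (-0.16) and EEF2K (0.48), for the SIN3A complex SIN3A (0.62), BRMS1 (-1.59), MXI1 (1.56) and SUDS3 (1.24), and for the metabolic electron donors POR (-0.77) and CYB5A (-0.34).

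Energy, ribosome and lipid genes gave ATP5B (-0.60), CYC1 (-0.78), ATP5G3 (-0.85), RPS2 (-0.72), RPS26 (-0.72), LDHA (0.24), NDRG1 (0.65), TPI1 (-0.42), FADS2 (-0.51), FASN (0.25) and SCD (0.70). Stress genes gave SERPINH1 (-0.76), FKBP4 (-0.64), HSPB1 (-0.98), FTL (-1.15), TXNRD1 (0.24), NQO1 (-1.71), SLC38A2 (0.30), SLC7A5 (-1.22) and SLC3A2 (-1.52), and genes of growth and cycle PLK1 (-0.73), CDK6 (0.64), MDM2 (0.28), IGF1R (0.90) and IGFBP3 (0.38).

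Matrix and contractile genes gave THBS1 (-0.99), LOX (0.85), THBS2 (0.40), COL11A1 (1.88), TAGLN (-0.78) and MYL9 (-0.51), and the remaining factors and RNAs FOSL1 (-0.80), KLF6 (0.18), ARNTL2 (0.47), PTGES2 (-1.39), LINC00657 (0.82) and DANCR (-1.18). For retinoid and phosphodiesterase genes the values were DHRS3 (0.80), RARB (2.27), RDH10 (0.47), PDE4D (0.49), PDE4C (1.07), PDE7B (3.19) and PDE8A (0.92).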

How the results depend on the processing

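The number of genes called lay between 6120 and 6250 with 1 of the 4 libraries left out, and between 6216 and 7725 under the other settings. The number past the 2-fold limit, 135, was 76 by DESeq2 and 54 when every library needed at least 10 counts, and between 114 and 143 with 1 library left out. Fewer genes tested explain the second. With a library left out the lone sample is assumed to vary like the other groups. With the replicate number as a block 7225 genes were called and 127 passed the fold limit, and no named gene lost its call. The differences between replicates 1 and 2 for ketamine and for (2R,6R)-HNK had a correlation of 0.01 across genes. The labels do not say whether libraries of the same replicate number shared a lane or preparation, and this correlation cannot decide it. Of 90 named genes called, 81 kept direction and call under every setting. STAT3 reversed to -0.038 after the GC and length correction, and to -0.038 with the block added, and the cause was not tested. With E2 the calls numbered 7609 to 8281, and for the change by E2 8273 to 8976. Of 64 list counts, the GC and length correction moved 16 by over 1.5 times. Depth limits the 108 genes under 1 CPM, where 3 counts are 0.0516 CPM in the smallest library.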

Other observations

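Phosphodiesterases, which break down cyclic AMP or cyclic GMP, and retinoid genes were looked at after the values of PDE4D and DHRS3 had been seen, so that their counts are a description. Of 24 phosphodiesterase genes 18 were tested, 6 were called higher with ketamine and 1 lower (38.9% called, against 45.4% of all genes tested), with a median of 0.27, or 0.15 after the GC and length correction. The cyclic AMP enzyme PDE4D was at 6.38 and 7.11 CPM with ketamine and at 2.60 and 3.52 CPM with (2R,6R)-HNK (1.16 ± 0.14, adjusted p = 8.49e-10). PDE8A was at 23.3 and 22.8 CPM against 14.9 and 14.3 CPM (0.66 ± 0.06, adjusted p = 3.06e-12), which left ketamine at the vehicle mean of 23.5 CPM and (2R,6R)-HNK below it. PDE4B (1.28), PDE4C (1.003) and PDE7B (1.53) were also higher, all at under 2 CPM. PDE4D shares 227 exon bases with PART1 on the other strand.

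Of 22 retinoid genes 15 were tested. With ketamine 3 were higher and 4 lower, against 22.8% and 22.6% of all genes tested, with a median of 0.06. After the GC and length correction 3 were higher and 2 lower, against 14.7% and 24.1%, with a median of 0.12. DHRS3, a retinal reductase that retinoic acid is known to induce, was at 7.64 and 7.46 CPM with ketamine and at 1.98 and 2.69 CPM with (2R,6R)-HNK (1.71 ± 0.15, adjusted p = 4.53e-14). Vehicle was at 1.10 CPM, below both. The retinol dehydrogenase RDH10 was at 12.6 and 12.5 CPM against 9.83 and 10.3 CPM (0.32, adjusted p = 0.000872). The retinoic acid receptor RARB was at 0.71 and 0.39 CPM against 0.08 and 0.09 CPM (2.72 ± 0.59, adjusted p = 9.86e-05), with vehicle at 0.26 CPM between the groups.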
